A study of Mus musculus with 36 samples.

Results

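The 3 Runx genes, Cbfb and Gfi1 were followed by RNA-seq while mouse B cells were converted into macrophages by C/EBPα, a leucine zipper transcription factor of the myeloid lineage. These 5 genes were taken by name, and all 5 have rows in the count tables (40354 genes) and in the tables of log2 normalized counts (19067 genes). Gfi1 fell from group means of 9.47 to 11.2 CPM (read counts scaled to library size) to 0.89 to 1.22 CPM by 18 hr post induction (hpi), and the fall was called from 1 hpi with both mutant constructs and from 6 hpi with the wild type. By 18 hpi Runx3 fell with the wild type and rose with R35A and, just short of the 1.5-fold threshold, with R35K. At 120 hpi its mean was 111 CPM with the wild type, 36.4 CPM with R35A and 51.8 CPM with R35K. Runx1 stayed within a 1.63-fold range over all groups, and Cbfb was lowest at 18 hpi. Runx2, like markers of fibroblasts, rose at 1 hpi and lay below its start at 120 hpi.

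The cells were primary B cells of C57BL/6J bone marrow, given C/EBPα fused to the estrogen receptor (ER) by a retrovirus with a human CD4 (hCD4) marker, selected for hCD4 and grown with IL-7 on inactivated mouse embryonic fibroblast (MEF) feeders. The fusion protein enters the nucleus once 17β-estradiol (E2) is added. The constructs were the wild type (WT) and 2 point mutants of arginine 35, R35A with alanine and R35K with lysine in its place, and cells were taken before induction and at 5 times from 1 to 120 hpi, with 2 biological replicates in each of the 18 groups and 36 libraries in all. All groups carry the retrovirus and the ER fusion, no group lacks C/EBPα, and the medium used from induction also held IL-3, FLT-3, CSF-1 and SCF, so that time after E2 and time in that medium cannot be told apart. Cells up to 18 hpi are labelled B cells and those at 120 hpi macrophages. Feeders were removed by letting them adhere to a dish before RNA was extracted.

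Runx proteins bind DNA through the runt domain, and each forms a dimer with CBFβ, the product of Cbfb, which does not itself contact DNA but makes Runx binding firmer. Runx1 is needed for the emergence of blood stem cells and for early B cell development, Runx2 for bone formation, and Runx3 for cytotoxic T cells and several myeloid cell types. Gfi1 is a zinc finger repressor that brings the histone demethylase LSD1 (Kdm1a) and its partner CoREST to DNA through its SNAG domain. It is known to oppose PU.1, the product of Spi1, in myeloid cells and to favour granulocytes over macrophages.

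The annotated positions in mm10 (GENCODE vM21) are chr16:92601466-92826149 for Runx1, chr17:44495987-44814797 for Runx2 and chr5:107716657-107726036 for Gfi1, all on the minus strand, and chr4:135120652-135177990 for Runx3 and chr8:105170674-105217989 for Cbfb on the plus strand. Among the promoter windows used here, Runx1 and Runx3 have a distal and a proximal one, and for Runx2 only 1 was given. Reads counted per gene do not separate transcripts from different promoters of any of these genes. The 3 Runx genes share a sequence at their starts that is shown here because it is the binding motif of the proteins they encode. The windows are from RefSeq (GRCm38.p6), 250 bases before to 50 after a start site, and capitals mark 2 copies of the Runx motif AACCACA with 1 base between them.
Runx1 distal promoter, chr16:92826026-92826054, minus strand: cataaacAACCACAGAACCACAagttggg
Runx2 promoter, chr17:44814584-44814612, minus strand: cacaaacAACCACAGAACCACAagtgcgg
Runx3 distal promoter, chr4:135120503-135120531, plus strand: gtccctcAACCACAGAACCACAaggccag

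With the start site as base 1, the pair lies at bases 28 to 42 in Runx1 and 23 to 37 in Runx2, and in Runx3 it lies 135 to 121 bases before the start. Both strands were searched, and the tandem pair was found in 5 of 32851 windows of 300 bases (0.0152%), 3 of which belong to these genes and 1 to Gm16225, whose window overlaps that of Runx3. A single AACCACA, which the tandem pair also contains, was found in 5.27% of windows, and in none of the windows of the proximal Runx1 and Runx3 promoters, Cbfb and Gfi1. A C/EBP motif, TTNNGCAA, occurs in 10.8% of windows, among them 1 Gfi1 window and the Runx2 window. The PU.1 motif letters GAGGAA occur in 28.3% of windows, among them those of Cbfb and the proximal Runx1 promoter. These matches are letters in a window and were not tested as bound sites.

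The libraries held 13044456 to 23131776 counts. Replicates differed most at 6 hpi with WT and at 3 hpi with R35K (chi-square per gene of 13.2 and 7.18, median of the 18 groups 1.86). Macrophage markers (Csf1r, Itgam, Lyz2, Cd14, Adgre1, Cd68) summed to 57.7 to 64.4 CPM at 0 hpi and to 17800 to 29090 CPM at 120 hpi. Part of this lay between 0 and 1 hpi, when the macrophage sum reached 821 to 7874 CPM. Fibroblast markers (Col1a1, Col1a2, Col3a1, Dcn, Lum, Postn) rose over the same hour from 879 to 965 CPM to 1670 to 2062 CPM, and granulocyte markers (Ly6g, Elane, Mpo, Camp, Ngp, Ltf) went from 18.9 to 25.4 CPM to at most 1.49 CPM. These values move with every comparison to 0 hpi, and their part in the changes of the 5 genes was not tested. In such bulk samples, fewer cells of a type and less RNA per cell cannot be told apart.

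Levels are in CPM after TMM scaling over the 36 libraries, with the SD of 2 replicates. Changes were tested on the counts with edgeR's quasi-likelihood F test, and a gene is called changed at a change of at least 1.5-fold (0.585 on the log2 scale) with p no higher than 0.05 after Benjamini-Hochberg adjustment over all genes tested. Of 25 tests of a member at a time after 0 hpi, 10 were called with WT (5 up, 5 down), 14 with R35A (6 up, 8 down) and 11 with R35K (5 up, 6 down). Of all genes tested, 19.9%, 23.5%, 29.8%, 47.1% and 63.3% were called with WT at the 5 times in order, 37.3%, 36.8%, 37.7%, 42.6% and 63.1% with R35A, and 32.9%, 32.7%, 34.1%, 39.0% and 63.8% with R35K. The members called at these times numbered 1, 1, 2, 4 and 2 of 5 with WT, 2, 2, 3, 4 and 3 with R35A, and 2, 2, 2, 2 and 3 with R35K. With 5 members, 1 member is 20% of the set, and the counts lie on both sides of the background, from 4 of 5 against 47.1% and 42.6% at 18 hpi with WT and R35A to 2 of 5 against 63.3% at 120 hpi with WT.

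**Figure D1:**
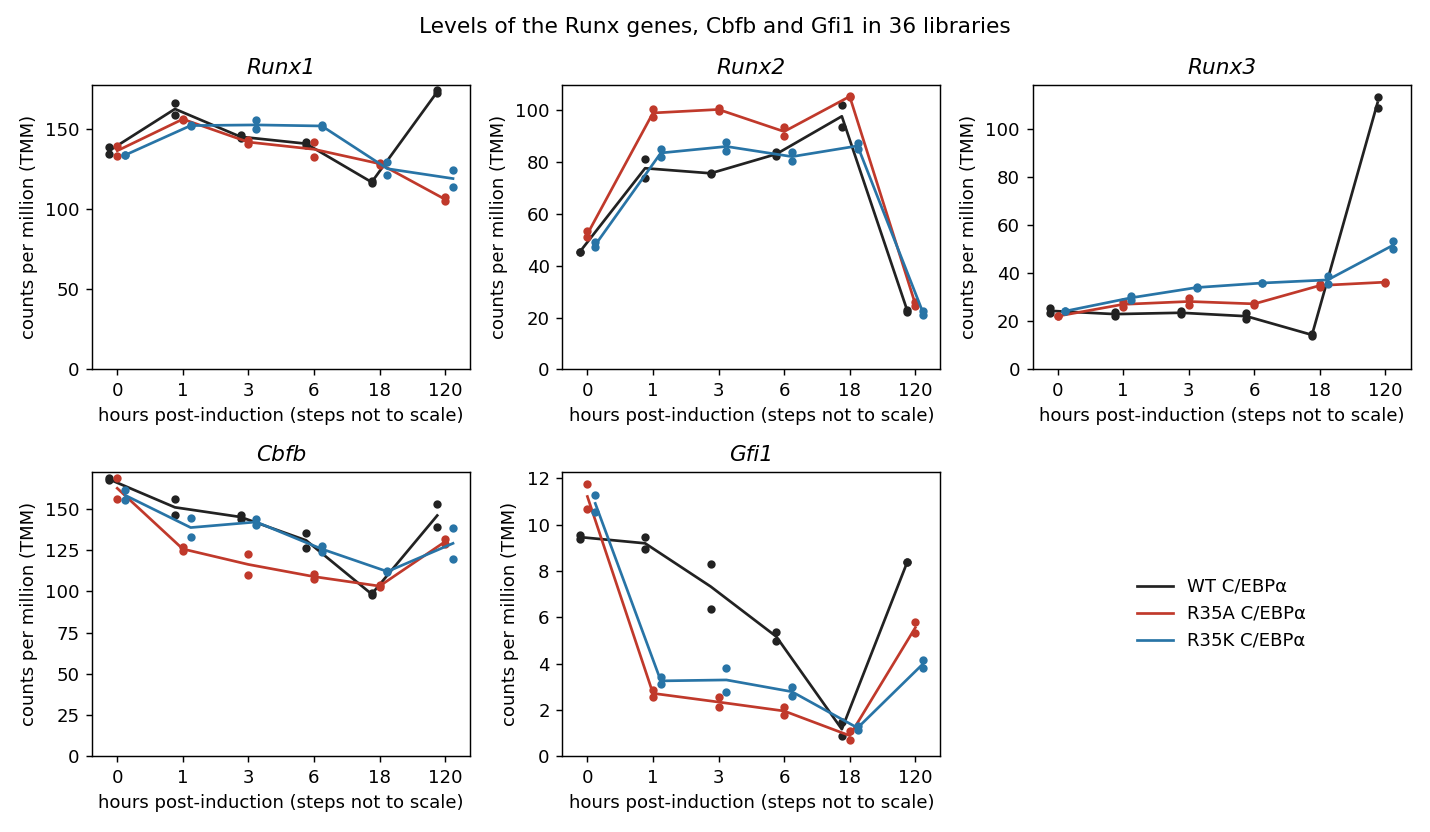
Level of each gene in CPM (vertical axes, from 0) at each time (horizontal axes, in steps not to scale). Points are the 2 replicates of a group, lines join their means, and black, red and blue are WT, R35A and R35K. Gfi1 drops at 1 hpi in red and blue but not in black, and Runx3 at 120 hpi is highest in black, at 111 CPM.

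Gfi1 was the member with the widest range, 12.6-fold between its highest and lowest group mean. At 0 hpi the replicates were at 9.39 and 9.54 CPM with WT, 11.7 and 10.7 CPM with R35A, and 10.6 and 11.3 CPM with R35K. At 1 hpi they were at 9.46 and 8.94 CPM with WT, 2.57 and 2.87 CPM with R35A, and a mean of 3.26 CPM (SD 0.217, from 52 and 50 counts) with R35K. The WT replicates thus stayed near their starting level, and all 4 mutant libraries lay far below any library of 0 hpi.

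With WT, Gfi1 stood at 8.29 and 6.38 CPM at 3 hpi, at 5.37 and 4.98 CPM at 6 hpi and at 1.47 and 0.868 CPM at 18 hpi. With R35A it stood at 2.12 and 2.56 CPM, 1.77 and 2.14 CPM, and 0.706 and 1.07 CPM at these times, and with R35K at 3.81 and 2.78 CPM, 2.60 and 2.97 CPM, and 1.30 and 1.15 CPM. The 3 constructs came close at 18 hpi, where WT overlapped each mutant and both R35K replicates lay above those of R35A. Each library there held only 11 to 23 counts of Gfi1, so the size of the late fall is less certain than that of the early one.

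On the log2 scale, Gfi1 at 1 hpi had changed by −0.02 ± 0.13 (SE) with WT (adjusted p = 0.904), by −2.06 ± 0.15 with R35A (adjusted p = 2.43e-17) and by −1.80 ± 0.15 with R35K (adjusted p = 2.42e-12). The fall was first called at 6 hpi with WT, at −0.89 ± 0.14 (adjusted p = 4.22e-07), and at −0.94 or −0.83 with either replicate of that group left out. By 18 hpi it reached −3.03 ± 0.20 with WT, −3.63 ± 0.19 with R35A and −3.19 ± 0.19 with R35K. At 1 hpi the change was thus large with both mutants and within its error of 0 with WT.

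The difference between constructs in this change was tested directly. Relative to WT, the change of Gfi1 with R35A was lower by 2.04 ± 0.20 log2 units at 1 hpi (adjusted p = 3.63e-12), 1.90 ± 0.22 at 3 hpi and 1.62 ± 0.23 at 6 hpi. With R35K the differences were −1.70 ± 0.20 (adjusted p = 5.4e-10), −1.39 ± 0.20 and −1.09 ± 0.22. B cell and macrophage genes also differed between constructs at 1 hpi. The B lineage factor Pax5 went from 858, 793 and 841 CPM at 0 hpi to 251, 78.6 and 156 CPM at 1 hpi with WT, R35A and R35K, the same order of constructs as for Gfi1. The macrophage sum at 1 hpi was 834 and 821 CPM with WT, 3680 and 3663 CPM with R35A, and 7874 and 7733 CPM with R35K. The part of these shifts in the Gfi1 values was not tested. At 18 hpi the differences of −0.59 ± 0.35 (adjusted p = 0.267) and −0.12 ± 0.34 (adjusted p = 0.852) were not called, with 95% confidence intervals of −1.30 to 0.11 and −0.79 to 0.56.

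Gfi1 came back between 18 and 120 hpi with every construct. It reached 8.40 and 8.41 CPM with WT, 5.80 and 5.31 CPM with R35A and 4.18 and 3.82 CPM with R35K, so that the 3 constructs did not overlap. From 18 hpi these are rises of 2.73 ± 0.22, 2.49 ± 0.24 and 1.64 ± 0.25 log2 units (adjusted p = 1.81e-16, 2.12e-13 and 4.79e-07). Over this interval Gfi1 was called up, Runx2 was called down, and with WT Runx3 was called up, 3, 2 and 2 of 5 members with WT, R35A and R35K against 60.5%, 53.9% and 53.3% of all genes.

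At 120 hpi Gfi1 remained below 0 hpi by 1.13 ± 0.14 log2 units with R35A and by 1.55 ± 0.16 with R35K, and with WT the change of −0.30 ± 0.14 did not reach 1.5-fold (adjusted p = 0.0473). The change differed from WT by −0.83 ± 0.20 with R35A (adjusted p = 0.000844) and by −1.28 ± 0.22 with R35K (adjusted p = 4.04e-06). Measured from 1 hpi in place of 0 hpi, a comparison added after the data were seen, Gfi1 at 120 hpi was higher by 0.93 log2 units with R35A and by 0.25 with R35K, the latter not called (adjusted p = 0.266).

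Gfi1b, the paralogue of Gfi1 that serves as a repressor in erythroid cells and megakaryocytes, also fell. It went from 76 and 81 counts at 0 hpi to 20 and 23 counts at 1 hpi with WT, from 81 and 96 to 17 and 8 counts with R35A, and from 77 and 76 to 23 and 23 counts with R35K. These are log2 changes of −2.03 ± 0.23, −2.91 ± 0.25 and −1.70 ± 0.22. Unlike Gfi1, Gfi1b was thus called down at 1 hpi with WT as well, and at 120 hpi it remained at 1.24 CPM with WT against 5.49 CPM at 0 hpi. Markers of erythroid cells and megakaryocytes (Gata1, Klf1, Itga2b, Pf4) summed to 8.72 to 10.85 CPM at 0 hpi and 330 to 703 CPM at 120 hpi. With WT, Pf4 rose from 2.06 to 336 CPM, Itga2b fell from 7.17 to 1.92 CPM, and Gata1 and Klf1 were at most 0.184 CPM. Their part in the Gfi1b values was not tested.

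Runx3, the smallest of the 3 Runx genes, ranged 7.71-fold. At 0 hpi its replicates stood at 23.4 and 25.5 CPM with WT, 22.1 and 22.4 CPM with R35A and 24.4 and 24.3 CPM with R35K. At 18 hpi they stood at 14.9 and 13.9 CPM with WT, 35.6 and 34.4 CPM with R35A, and 35.7 and 39.0 CPM with R35K. WT thus lay below every other group, and both mutants lay above every library of 0 hpi.

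The fall with WT was called only at 18 hpi, at −0.77 ± 0.09 log2 units (adjusted p = 3.6e-11), since Runx3 at 1, 3 and 6 hpi had changed by −0.06, −0.05 and −0.16. With R35A the change at 18 hpi was 0.63 ± 0.07 and called (adjusted p = 5.58e-11). With R35K it was 0.57 ± 0.07 (adjusted p = 5.82e-09), just under the 1.5-fold threshold, and it was called with DESeq2, at 0.66, and without R35K replicate 1 at 18 hpi, at 0.64. The difference in change between mutant and WT was 1.40 ± 0.11 for R35A (adjusted p = 1.06e-14) and 1.38 ± 0.11 for R35K (adjusted p = 6.5e-16). A difference of 0.71 ± 0.11 was already called for R35K at 6 hpi, where R35A differed by 0.44 ± 0.11 and was not called.

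Between 18 and 120 hpi the order turned around. With WT, Runx3 reached 114 and 109 CPM, a rise of 2.83 ± 0.07 log2 units from 18 hpi and of 2.06 ± 0.07 from 0 hpi (adjusted p = 3.44e-37 and 2.77e-32). With R35K it reached 50.2 and 53.5 CPM, 0.99 ± 0.07 above 0 hpi, and with R35A 36.6 and 36.2 CPM, 0.59 ± 0.08 above 0 hpi and −0.05 ± 0.07 from 18 hpi (adjusted p = 0.56). The change from 0 hpi was smaller than with WT by 1.47 ± 0.10 with R35A and by 1.095 ± 0.10 with R35K (adjusted p = 4.45e-17 and 8.61e-14).

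The rise with R35A at 120 hpi lies just past the threshold, at 0.588 against 0.585, and was lost without the low-count filter (0.57) and without R35A replicate 1 at 0 hpi (0.583). Of 6 markers of T and NK cells, in which Runx3 is also active, Cd3e, Cd3g, Cd8a and Ncr1 were at most 0.128 CPM in any group mean, and all 4 were at 0 at 120 hpi. Lck, which early B cells express as well, made up nearly all of their sum of 36.4 to 40.9 CPM at 0 hpi, and the sum was at most 1.42 CPM at 120 hpi. The NK marker Klrb1c was higher at 120 hpi than at 0 hpi, at 1.05 CPM with WT (0.104 at 0 hpi), 0.403 CPM with R35A (0.113) and 0.66 CPM with R35K (0.155), the same order of constructs as for Runx3, and its part in the Runx3 values was not tested. Plasmacytoid dendritic cell markers (Siglech, Ccr9) did not exceed 1.63 CPM in any library.

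Runx1 was the steadiest member. Its replicates stood at 135 and 139 CPM with WT at 0 hpi, 139.8 and 134 CPM with R35A and 134 and 134 CPM with R35K. No change from 0 hpi was called with any construct, though small ones passed the adjusted p, such as a difference of 0.27 ± 0.04 log2 units with WT at 1 hpi (adjusted p = 2.23e-08), at 166 and 159 CPM. At 18 hpi the means were 117, 129 and 125 CPM with WT, R35A and R35K.

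At 120 hpi the constructs parted. WT stood at 174 and 173 CPM, the highest group of all 18, R35K at 114 and 124 CPM and R35A at 108 and 105 CPM, the lowest group. Against 0 hpi these are changes of 0.22 ± 0.04, −0.27 ± 0.05 and −0.48 ± 0.04 log2 units, each of them under 1.5-fold. From 1 hpi as the start, added after the data were seen, the change with R35A was called, at −0.66, and that with WT was −0.06 (adjusted p = 0.17). The difference in change from WT was −0.70 ± 0.06 with R35A (adjusted p = 6.21e-15) and was called, and −0.51 ± 0.06 with R35K (adjusted p = 3.52e-10), short of 1.5-fold. Like Runx3 and Gfi1, Runx1 was thus higher with WT than with either mutant at 120 hpi. Cbfb was highest with WT there too, but its differences in change were not called. They were −0.11 with R35A and −0.09 with R35K (adjusted p = 0.207 and 0.416).

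**Figure D2:**
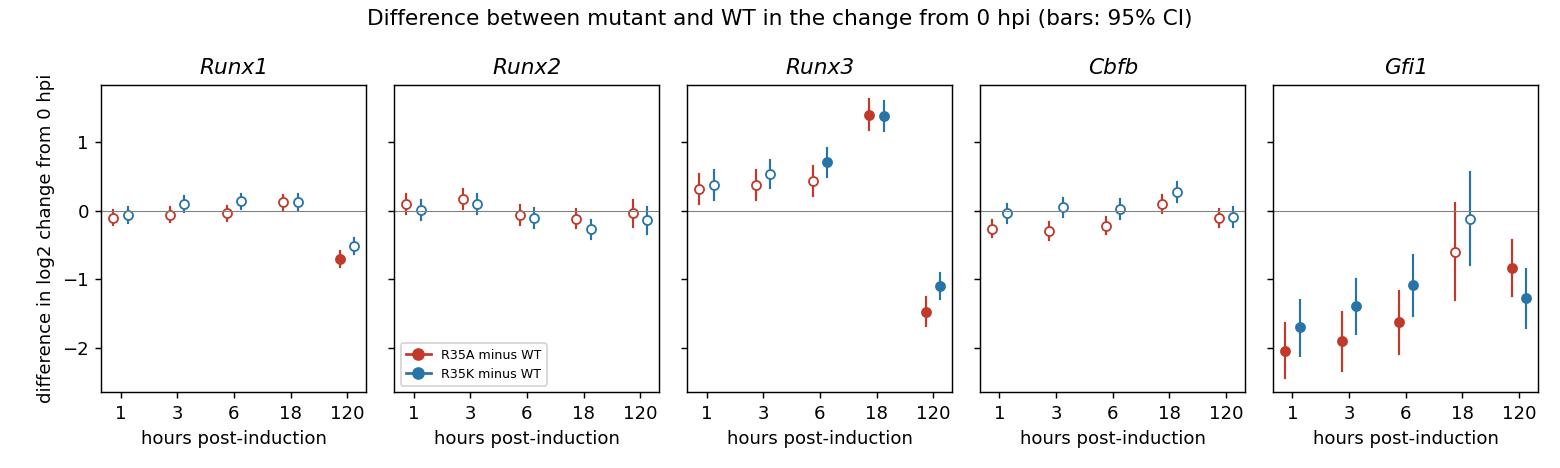
Difference in log2 change from 0 hpi between each mutant and WT (vertical axis) at each time after induction (horizontal axis), for each gene. Points are estimates, bars are 95% confidence intervals, red is R35A minus WT, blue is R35K minus WT, and filled points are called; Gfi1 is lowest at 1 hpi, at −2.04 and −1.70, and Runx3 turns from 1.40 and 1.38 at 18 hpi to −1.47 and −1.095 at 120 hpi.

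Over the 25 tests of a difference in change, 7 were called for R35A against WT (1 higher, 6 lower) and 7 for R35K against WT (2 higher, 5 lower). The shares of all genes called at the 5 times were 14.0%, 13.0%, 10.3%, 8.36% and 14.5% for R35A, with 1, 1, 1, 1 and 3 of 5 members. They were 11.9%, 10.0%, 12.2%, 13.3% and 10.1% for R35K, with 1, 1, 2, 1 and 2 of 5 members. Compared directly with WT at each time, without the 0 hpi libraries and added after the data were seen, the same 7 tests were called for R35A and the same 7 for R35K, with Gfi1 at 1 hpi at −1.80 and −1.50.

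Between the mutants no difference in change was called in 25 tests, against 5.83%, 3.02%, 5.89%, 3.44% and 1.61% of all genes at the 5 times. Of these 25, 12 had an unadjusted p and 6 an adjusted p of at most 0.05 with edgeR, and DESeq2 called 0. The mutants were still not shown to act alike, since at 1 hpi the difference for Gfi1 of 0.29 ± 0.23 has an interval of −0.17 to 0.76, and at 120 hpi Runx3 was higher with R35K by 0.38 ± 0.10 (adjusted p = 0.00771). Before induction, R35A and WT differed in 0 of 5 members and 0% of all genes with edgeR. At an unadjusted p of at most 0.05 there were 1 member, Runx2 (0.21 ± 0.06, adjusted p = 0.12), and 1618 genes, and DESeq2 called 1 gene, which was no member.

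Runx2 rose at 1 hpi with every construct and fell below its start by 120 hpi. It went from 45.3 and 45.2 CPM at 0 hpi to 74.0 and 81.4 CPM at 1 hpi with WT, from 53.4 and 51.2 to 97.4 and 100.7 CPM with R35A, and from 49.1 and 47.1 to 82.2 and 85.0 CPM with R35K. At 18 hpi it was at 93.6 and 102 CPM, 106 and 105 CPM, and 85.3 and 87.4 CPM. At 120 hpi it was at 22.2 and 22.9 CPM, 25.9 and 24.6 CPM, and 22.5 and 21.2 CPM, so that 0 hpi, the times from 1 to 18 hpi, and 120 hpi formed 3 levels that did not overlap.

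At 1 hpi the changes were 0.80 ± 0.05, 0.90 ± 0.05 and 0.75 ± 0.05 log2 units with WT, R35A and R35K, and at 120 hpi −1.13 ± 0.07, −1.17 ± 0.06 and −1.24 ± 0.07, all called. No difference in the change of Runx2 between a mutant and WT was called at any time, though that of R35K at 18 hpi, −0.27 ± 0.07, passed the adjusted p (0.00204). From 1 hpi to 3, 6 or 18 hpi Runx2 was not called changed with any construct, the largest value being 0.31 with WT at 18 hpi.

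Fibroblast markers also rose at 1 hpi and lay below their start at 120 hpi with every construct. Between 1 and 18 hpi their sum fell with both mutants, while Runx2 did not fall. Their summed level at 0, 1, 18 and 120 hpi was 879 and 895, 1916 and 1928, 2346 and 2289, and 131 and 106 CPM with WT, and 929 and 965, 2048 and 2062, 1706 and 1693, and 415 and 399.7 CPM with R35A. With R35K it was 886 and 936, 1721 and 1670, 1209 and 1225, and 353 and 295 CPM. Per 1000 CPM of these markers, Runx2 stood at 33.4 to 70.9 CPM in 17 of the 18 groups and at 193 ± 32.4 CPM with WT at 120 hpi.

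All 6 markers were detected up to 18 hpi, and at 120 hpi Lum was at 0 in every library. Over the 18 group means, the Pearson correlation with the log2 sum of these markers was 0.925 for Runx2, −0.81 for Runx3, −0.38 for Gfi1, −0.30 for Cbfb and 0.06 for Runx1, a description of groups that share time and medium. The part of remaining feeder cells in the values of Runx2 was not tested. Markers of osteoblasts (Bglap, Sp7, Ibsp), the cells Runx2 is best known for, summed to at most 1.66 CPM in any library.

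**Figure D3:**
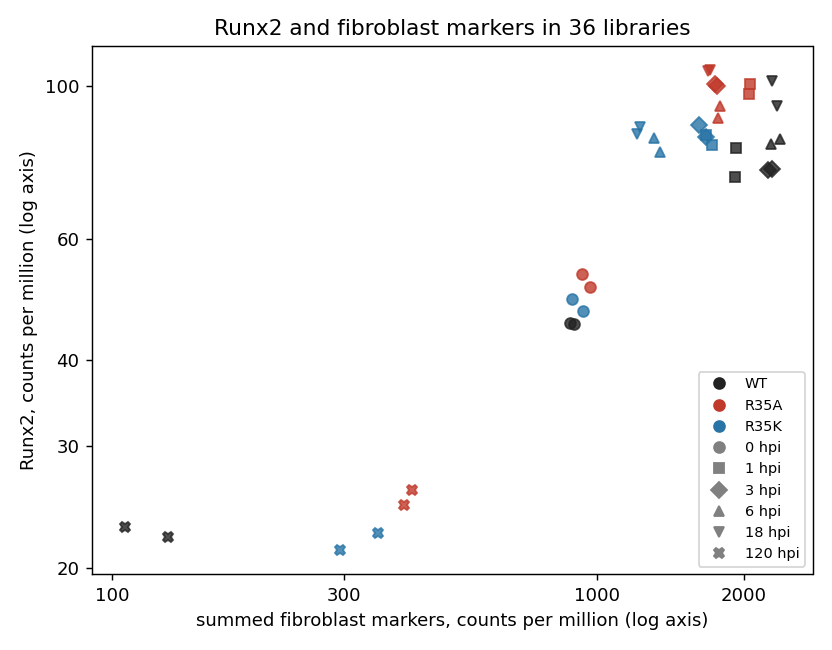
Runx2 (vertical log axis, CPM) against the summed level of 6 fibroblast markers (horizontal log axis, CPM) in each of the 36 libraries. Colour gives the construct and the symbol the time; the libraries of 120 hpi lie at the lower left, at 106 to 415 CPM of markers, those of 0 hpi in the middle and the others at the upper right.

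Cbfb was lower at 18 hpi than at 0 hpi in every library, a fall called with WT and R35A. With WT it went from 167 and 169 CPM at 0 hpi to 97.6 and 99.1 CPM at 18 hpi and 139 and 153 CPM at 120 hpi. With R35A it went from 169 and 156 to 104 and 102 and then 132 and 129 CPM, and with R35K from 161 and 155 to 112 and 112 and then 119.6 and 139 CPM. The ranges at 18 hpi lie below all libraries of 0 hpi, and those at 120 hpi lie between.

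At 18 hpi the changes were −0.77 ± 0.05, −0.67 ± 0.05 and −0.54 ± 0.05 log2 units, called with WT and R35A and short of 1.5-fold with R35K. With R35A the earlier changes were −0.39 ± 0.04 at 1 hpi, −0.51 ± 0.05 at 3 hpi and −0.59 ± 0.05 at 6 hpi, the last of which was called, and that at 3 hpi was called (−0.59) only without R35A replicate 1 at 3 hpi. The 6 hpi call was lost with DESeq2 or its size factors (both −0.52), a filter of 10 counts (−0.58), all 36 libraries in 1 fit (−0.57) or the compared groups alone (−0.58), and at values of −0.54 and −0.57 without 1 library, R35A at 0 hpi replicate 1 or at 6 hpi replicate 1. The differences in change from WT of −0.26 ± 0.06, −0.30 ± 0.06 and −0.22 ± 0.06 at 1, 3 and 6 hpi passed the adjusted p (0.00075, 0.000189 and 0.00808) and were under 1.5-fold. The difference from 18 to 120 hpi of 0.44 ± 0.05 with WT was also under 1.5-fold, and reached it (0.64) only without WT replicate 1 at 120 hpi.

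Set in order over the 18 groups, Cbfb overlapped between neighbours in 13 of 17 pairs of groups, Runx1 and Runx2 in 10 each, and Runx3 and Gfi1 in 8 each. The clearest steps were those of Runx3, where WT at 120 hpi stood above R35K at 120 hpi and WT at 18 hpi stood below all others, and of Runx2, where the 3 groups of 120 hpi stood apart from those of 0 hpi. For Gfi1 the groups of 18 hpi were the lowest, and WT among them overlapped each mutant.

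The Runx genes were next compared with one another as CPM per kb of annotated exon (12025 bases for Runx1, 8837 for Runx2 and 5003 for Runx3), a scale that assumes all exons are used. At 0 hpi Runx1 made up 53.2 ± 0.199% of the summed Runx level with WT, Runx2 24.0 ± 0.632% and Runx3 22.8 ± 0.831%, and the mutants lay within 4 percentage points of these. At 18 hpi the Runx3 share was 12.2 ± 0.915% with WT, 23.6 ± 0.449% with R35A and 27.0 ± 0.589% with R35K. At 120 hpi it was 56.7 ± 0.688%, 38.3 ± 0.316% and 45.5 ± 0.103%. Runx3 was thus the leading Runx gene with WT and, closely followed by Runx1 at 43.6 ± 0.8%, with R35K. With R35A the leading gene was Runx1, at 46.6 ± 0.0213%.

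The summed Runx level was 21.4 ± 0.531 CPM per kb at 0 hpi and 39.2 ± 0.718 at 120 hpi with WT, and stood at 19.0 ± 0.312 with R35A and 22.8 ± 0.961 with R35K at 120 hpi. Cbfb, over 3480 bases of exon, stood at 2.26 ± 0.0446 times the summed Runx level at 0 hpi and at 1.07 ± 0.0931 times at 120 hpi with WT. At 120 hpi the ratio was 1.97 ± 0.00274 with R35A and 1.63 ± 0.102 with R35K. These shares hold the Runx2 reads, whose level over the groups correlated with that of the fibroblast markers.

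**Figure D4:**
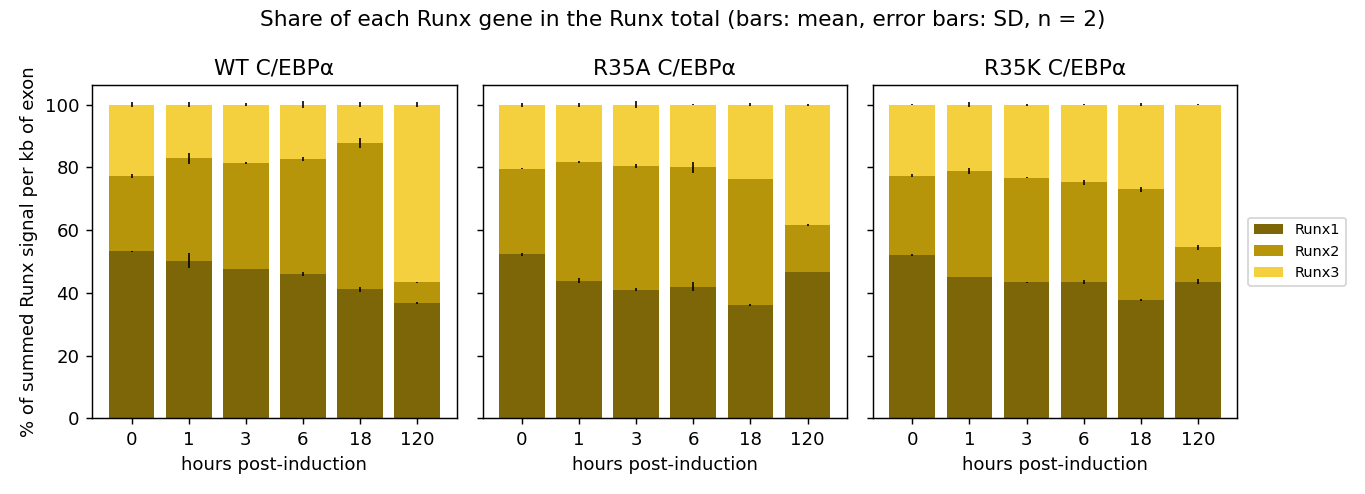
Share of Runx1, Runx2 and Runx3 in their summed level per kb of exon (vertical axis, percent, from 0) at each time (horizontal axis) for each construct. Bars are means and error bars SDs of 2 replicates; the Runx3 share at 120 hpi is 56.7% with WT against 38.3% with R35A and 45.5% with R35K.

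Cofactors of Runx proteins were followed from a list of 16 genes. At 1 hpi 1 was called up and 2 down with WT, 1 and 5 with R35A, and 1 and 4 with R35K, and at 120 hpi 2 were called up and 8 down with each construct. Of all genes, 19.9%, 37.3% and 32.9% were called at 1 hpi and 63.3%, 63.1% and 63.8% at 120 hpi. The list's median change at 120 hpi was −0.47, −0.73 and −0.69 log2 units, where that of all genes was −0.36, −0.31 and −0.28. Runx1t1, a corepressor of the ETO family, fell from 6.91 CPM at 0 hpi to 2 and 1 counts at 120 hpi with WT, after 12.4 CPM at 18 hpi. The Groucho corepressor Tle1 fell from 48.7 to 8.32 CPM with WT, after 82.4 CPM at 18 hpi. Fibroblast markers with WT also rose by 18 hpi and lay below their start at 120 hpi. The part of remaining feeder cells in the Runx1t1 and Tle1 values was not tested. With WT, Tle2 rose from 5.81 to 17.7 CPM, and Prmt1, an arginine methyltransferase that acts on RUNX1, fell from 240.8 to 81.2 CPM.

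Among Gfi1b and 11 genes of the corepressor machinery, 2 were called down and 0 up at 1 hpi with WT, 4 down and 1 up with R35A, and 5 down and 0 up with R35K. At 120 hpi 5, 6 and 6 were called down and 1, 1 and 1 up. Of all genes, 19.9%, 37.3% and 32.9% were called at 1 hpi and 63.3%, 63.1% and 63.8% at 120 hpi. Insm1, a zinc finger repressor with a SNAG domain like that of Gfi1, stood at 1 hpi at 3.38 CPM with WT against 4.44 CPM at 0 hpi (adjusted p = 0.117), 1.07 CPM with R35A and 0.893 CPM with R35K, both called down. At 120 hpi it had 0 counts in all 6 libraries, at least 16.1-fold lower than at 0 hpi with WT (against 3 counts per library). Rcor2, a CoREST subunit, fell from 11.7 to 5.46 CPM with WT and Rcor3, another, rose from 9.94 to 22.6 CPM.

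Genes known from other work as targets of Runx proteins went both ways. Of the 11 tested with WT (9 with R35K), 6 were called up and 5 down at 120 hpi with WT and with R35A, and 5 up and 4 down with R35K. Of all genes, 63.3%, 63.1% and 63.8% were called at that time with WT, R35A and R35K. Csf1r, the receptor for CSF-1 on macrophages, rose from 7.51 to 2240 CPM with WT and already stood at 111 CPM at 1 hpi with WT, 544 CPM with R35A and 1127 CPM with R35K. Ebf1, a B lineage factor, fell from 415 to 2.96 CPM with WT at 120 hpi, Blk, a B cell kinase, from 192 to 0.28 CPM, and Rag1, a recombinase subunit, from 1209 and 1147 counts to 2 and 3. The list's median of 1.34, 1.22 and 1.29 at 120 hpi mixes these directions, and with genes at the floor set to their bound it was 1.03 with R35A.

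Genes known from other work as repressed by Gfi1 also went both ways. At 1 hpi 7 were called up and 3 down of 15 with WT, 9 and 3 of 15 with R35A, and 8 and 2 of 14 with R35K, with medians of 0.37, 0.68 and 0.96 log2 units against −0.01, −0.01 and −0.04 for all genes. At 18 hpi 10 were up and 4 down with WT, 10 and 3 with R35A, and 8 and 2 with R35K. The medians there were close to one another, at 0.854, 0.851 and 0.877. At 120 hpi the counts were 6 up and 6 down, 5 and 6, and 4 and 6, with medians of 0.326, −0.284 and 0.405. The shares of all genes called were 19.9%, 37.3% and 32.9% at 1 hpi with WT, R35A and R35K. They were 47.1%, 42.6% and 39.0% at 18 hpi and 63.3%, 63.1% and 63.8% at 120 hpi.

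Spi1, which encodes PU.1, rose at 1 hpi by 1.18 ± 0.06, 1.57 ± 0.05 and 2.26 ± 0.06 log2 units with WT, R35A and R35K, and at 18 hpi it stood at 43.3 (not called), 114 and 183 CPM, from 33.0, 31.5 and 31.1 CPM at 0 hpi. Egr2, a macrophage zinc finger factor, rose from 8.01 to 27.3 CPM at 1 hpi and to 203 CPM at 120 hpi with WT. Hoxa9, a progenitor gene, fell from 9.22 to 0.879 CPM at 120 hpi with WT, after 19.1 CPM at 18 hpi. Csf1r, Spi1, Elane and Gfi1b each stand on 2 of the 4 lists, and Csf1r, Elane and Mpo are also among the cell type markers.

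Over the 18 group means of log2 CPM, the genes most like each member were found among 17276 other genes. For Gfi1 these were Rp9, Rcsd1, Grk2, Kif14 and Ncapd3 (Pearson r 0.97 to 0.98), and for Cbfb they were Oip5, Asf1b, Kif19a, Mcm9 and Cdca8 (r 0.97). Cbfb and Gfi1 were also like each other (r = 0.94), the highest of the 10 pairs of members. For Runx2 they were Mbnl2, Creb3l1, Enah, Smurf1 and Ctsk (r 0.99), for Runx3 Mir155hg, Clk4, Tmem185b, Zfp263 and Smg9 (r 0.93 to 0.96), and for Runx1 Dusp5, Mterf3, Foxp3, Bmf and Tbpl1 (r 0.78 to 0.85). These values describe groups that share time and medium.

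Genes on the opposite strand overlap Runx1, Runx2, Runx3 and Gfi1, and the strand setting of the counting is not given in the sources used here. Their counts were low, at 2 to 16 per library for Gm26626 (Runx1), at most 18 for Runx2os1, 13 for Runx2os2 and 1 for Runx2os3 (Runx2), at most 2 for Gm16224 (Runx3) and at most 21 for A430072P03Rik (Gfi1). Supt3, which overlaps Runx2 on the other strand, held 98 to 203 counts.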

How the data were processed

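Per the labels and the study's methods, the authors made stranded libraries (TruSeq, 50 bp single-end, HiSeq2500), ran FastQC, and used STAR 2.5.0a for alignment to mm10 and for counts per gene. The annotation release and strand column are not given in the sources used here. The deposited count tables hold whole counts without normalization. The deposited log2 tables hold log2 normalized counts, made by the authors with DESeq2 1.14.1 as log2 of count over size factor plus 1, recovered for 100% of values within 1e-06, and were not used for tests. All columns matched a sample, leaving 0 unused.

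Counts were tested with edgeR 4.0.16 (R 4.3.3) with filterByExpr, TMM and quasi-likelihood F tests, with Benjamini-Hochberg adjustment over all genes. The 24 WT and R35A libraries were fitted together (16988 genes), the 12 R35K libraries alone (16434), and all 36 together (17277) for R35K against the other constructs and for levels. Totals per library were 13044456 to 23131776 counts, and the common coefficient of variation between replicates was 3.17%, 3.49% and 3.27%. Replicates of every group differed by more than sampling noise (chi-square per gene 1.11 to 13.2). Replicate numbers did not pair the samples (median correlation of deviations −0.01 over 153 pairs of groups, 1 pair above 0.1). Whether replicates came from separate mice is not given, so p-values measure the spread between these samples.

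Members and lists were chosen with earlier results of these data known. The text names the 5 members, the 5 genes most correlated with each over group means, up to 4 list genes with the largest called change from 0 to 120 hpi with WT, and genes that overlap members. Motifs were searched with Python 3.11.15. On counts simulated for R35K at 18 hpi against 0 hpi (15870 genes), the fit called 200 of 200 genes changed 2- or 4-fold and 3 of 15670 others. The changed genes were drawn from those above a minimum average count, and every gene was given the same spread. Far fewer genes changed there than in the real comparison, so this recovery holds for that setting only. The summed level of B lineage markers is not reported here.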

Additional observations from a re-analysis of the deposited data

Results flagged for a closer look

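These results stand out because the change from 0 hpi differed between a mutant and WT in a direct test of that difference (edgeR, interaction term). Values are log2 units, mutant minus WT.

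For Gfi1, R35A differed by −2.04 (1 hpi), −1.90 (3 hpi), −1.62 (6 hpi) and −0.83 (120 hpi), and R35K by −1.70, −1.39, −1.09 and −1.28 in the same order. For Runx3, R35A differed by 1.40 (18 hpi) and −1.47 (120 hpi), and R35K by 0.71 (6 hpi), 1.38 (18 hpi) and −1.095 (120 hpi). For Runx1, R35A differed by −0.70 (120 hpi). With 2 replicates a group, no single sample could be tested for distance from its group.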

How the results depend on the processing

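Of the 10 counts of called members, those between 18 and 120 hpi, at 0 hpi and between constructs stayed within 1.5 times under every alternative: DESeq2 1.42.0, its size factors in edgeR, either low-count filter, 2-fold, unadjusted p, the compared groups alone and, where it applied, all 36 libraries in 1 fit. With a 2-fold threshold the calls from 0 hpi went from 10, 14 and 11 with WT, R35A and R35K to 4, 6 and 6. With 1 hpi as the start, added after the data were seen, they were 6, 4 and 3 of 20, where 9, 12 and 9 of the same 20 were called from 0 hpi; 6, 2 and 3 were called both ways in the same direction. Under that start the sign turned, among called changes, for Runx2 at 3 hpi with WT (−0.063), at 6 hpi with R35A (−0.101) and at 6 hpi with R35K (−0.036), and for Gfi1 at 120 hpi with R35A (0.93) and R35K (0.25). Among changes not called it also turned for Runx1 with WT at 3, 6 and 120 hpi (−0.19, −0.24 and −0.06), with R35A at 3 hpi (−0.14) and with R35K at 6 hpi (−0.01), for Runx3 with WT at 3 hpi (0.0085) and for Cbfb with R35K at 3 hpi (0.04). Leaving out each library gave 10 to 10, 12 to 15 and 11 to 12 calls from 0 hpi, 3 to 4, 2 to 2 and 2 to 2 from 18 to 120 hpi, 0 to 0 at 0 hpi, and 7 to 7, 7 to 8 and 0 to 0 for R35A against WT, R35K against WT and R35K against R35A. A lone library left in a group is assumed to vary like the others.

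Adding the replicate number as a replicate block gave 10, 14 and 11 calls from 0 hpi, 3, 2 and 2 from 18 to 120 hpi, 0 at 0 hpi and 7, 7 and 0 between constructs, and changed no call of a member. DESeq2 size factors moved the median of all genes by at most 0.16 log2 units and turned no called member around. The fold threshold decides Runx3 at 18 hpi with R35K, at 120 hpi with R35A, and Cbfb at 6 hpi with R35A. Depth limits Gfi1 at 18 hpi, at 11 to 23 counts per library.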
